A study of Mus musculus with 8 samples.

Results

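Fatty acid oxidation was followed through the transcripts of 31 enzymes and carriers in RNA of a fraction of B16 melanoma tumours that the labels call sorted CD8 T cells. The 31 genes were taken by symbol from a fixed list, out of 55335 genes in the transcript tables, and all 31 passed the level filter, a mean of at least 5 CPM (counts scaled to the same library size). The CD36_KO group came from CD36 KO mice and the WT group from wild-type mice, both on strain background C57BL/6. In both groups B16 cells had been given i.v. and tumours had grown for 14 days. Each group was 1 library sequenced in 4 lanes. How many animals entered a library, the sort gates, the sex and the age of the mice, the kind of knockout allele and the site of the tumours are not stated by the labels. Lanes of 1 library measure sequencing noise and not the spread between animals or preparations, so no p-value is given. Intervals cover counting error only, since without molecular identifiers reads need not be independent molecules.

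In mitochondria, long-chain fatty acids enter as carnitine esters and are shortened in repeated cycles of dehydrogenation, hydration, a second dehydrogenation and thiolysis. Electrons leave the first step through the electron transfer flavoprotein, and auxiliary enzymes prepare unsaturated chains for the cycle. Peroxisomes run a parallel cycle on very long, branched and other special chains, and hand shortened products on to mitochondria. In CD8 T cells this pathway is best known from memory cells, and Cd36, the gene targeted here, encodes a receptor that imports long-chain fatty acids.

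The libraries differed in the levels of cell type markers, and this bears on each comparison that follows. Each CD36_KO lane held 2569962 to 2611740 estimated counts and each WT lane 2497048 to 2538468. The targeted gene Cd36 had 358 counts in the CD36_KO library and 1194 in the WT library, a log2 ratio of -1.98 (95% counting interval -2.15 to -1.80), in the direction of the labels. CD8 T cell markers were at least 2-fold higher in 12 of 12 cases, and their summed level was 652 to 709 TPM (a level per transcript length) in CD36_KO lanes against 137 to 151 TPM in WT lanes. Melanoma markers were at least 2-fold lower in 10 of 10 cases and summed to 427 to 437 TPM in CD36_KO lanes against 1207 to 1304 TPM in WT lanes. Hepatocyte markers were at least 2-fold higher in 16 of 16 measured cases, and their sum over all 18 was 438 to 455 TPM in CD36_KO lanes against 54.0 to 66.5 TPM in WT lanes. Macrophage markers summed to 1971 to 2025 TPM in CD36_KO lanes against 1763 to 1864 TPM in WT lanes, with 0 of 12 higher, 3 lower and 9 between. In scaled CPM the macrophage sum had the other direction, a log2 ratio of -0.48 (-0.50 to -0.46). Of its single ratios 12 of 12 were negative, where 7178 of all 12177 measured genes were. In both libraries the macrophage markers summed to more TPM than the CD8 T cell markers, and in the WT library so did the melanoma markers. Of the macrophage sum, Lyz2 alone gave 1520 TPM in CD36_KO and 1316 TPM in WT (lane means). In the CD36_KO library the order of these sums rested on Lyz2, and in the WT library it did not. Such levels of markers of other cell types go against the label of a CD8 T cell sort. The oxidation transcripts are therefore described for these mixed libraries and not for CD8 T cells. No marker of any of these 4 lists was at 0 counts in either library. In such bulk samples, fewer cells of a type and less RNA per cell cannot be told apart.

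Promoter windows are shown for 5 genes on which the comparison turns. Cpt2 and Etfb had the lowest ratios, Hsd17b10 and Ehhadh the highest, and Hadhb shares its start region with Hadha. Each window runs 5′ to 3′ from 250 bases before to 50 after the gene start and comes from RefSeq on GRCm38.p6. Capitals mark matches to the motifs named after the sequences.
Cpt2, chr4:107923540-107923839, minus strand: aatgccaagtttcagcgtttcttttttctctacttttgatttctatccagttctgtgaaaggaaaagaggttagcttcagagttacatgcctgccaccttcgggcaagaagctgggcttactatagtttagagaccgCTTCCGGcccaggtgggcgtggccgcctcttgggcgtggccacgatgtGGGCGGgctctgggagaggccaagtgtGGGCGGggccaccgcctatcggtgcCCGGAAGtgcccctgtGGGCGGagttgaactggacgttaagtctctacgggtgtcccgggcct
Etfb, chr7:43443822-43444121, plus strand: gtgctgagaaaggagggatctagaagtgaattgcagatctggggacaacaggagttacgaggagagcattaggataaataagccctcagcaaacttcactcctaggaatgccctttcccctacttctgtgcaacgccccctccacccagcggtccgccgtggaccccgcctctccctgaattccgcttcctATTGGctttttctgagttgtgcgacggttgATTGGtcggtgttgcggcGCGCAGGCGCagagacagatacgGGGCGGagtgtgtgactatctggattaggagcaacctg
Hadhb, chr5:30155003-30155302, plus strand: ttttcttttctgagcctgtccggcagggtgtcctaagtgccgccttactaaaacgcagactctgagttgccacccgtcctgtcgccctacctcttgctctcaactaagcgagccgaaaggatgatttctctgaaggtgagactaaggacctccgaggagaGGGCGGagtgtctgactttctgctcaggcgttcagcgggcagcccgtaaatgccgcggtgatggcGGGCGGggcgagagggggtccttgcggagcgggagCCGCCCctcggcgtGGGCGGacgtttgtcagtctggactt
Hsd17b10, chrX:152001646-152001945, plus strand: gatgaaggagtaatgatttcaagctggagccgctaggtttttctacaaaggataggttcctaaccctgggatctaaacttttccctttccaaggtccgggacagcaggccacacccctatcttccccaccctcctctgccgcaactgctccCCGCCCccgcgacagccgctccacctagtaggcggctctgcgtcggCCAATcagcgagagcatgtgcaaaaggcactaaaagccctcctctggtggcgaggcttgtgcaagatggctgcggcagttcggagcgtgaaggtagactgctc
Ehhadh, chr16:21787785-21788084, minus strand: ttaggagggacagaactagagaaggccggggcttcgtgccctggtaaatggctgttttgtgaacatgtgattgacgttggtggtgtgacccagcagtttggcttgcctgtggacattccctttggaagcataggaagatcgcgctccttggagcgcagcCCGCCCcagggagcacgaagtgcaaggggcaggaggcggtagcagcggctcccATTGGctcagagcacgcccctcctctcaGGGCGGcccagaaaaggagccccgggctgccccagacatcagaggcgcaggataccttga

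Exact matches on both strands were counted in 27 windows of 26 of the 31 genes, because Abcd3 has 2 windows. Crat, Acaa2, Acat1, Decr1 and Hsd17b4 had no entry. The GC box GGGCGG was in 21 of the 27 windows (77.8%), against 35.7% of all 32851 windows. For this and each motif below, all windows were not limited to genes above the level filter, which all 31 genes passed. No set of windows matched for level was compared. The core bound by NRF1, GCGCA and GCGC with 1 base of any kind between them, was in 4 of 27 (14.8%), against 4.60% of all windows, and its carriers were Abcd3, Etfb, Etfdh and Slc22a5. CCAAT was in 11 of 27 (40.7%, against 37.4%) and the ETS motif CCGGAAG in 3 of 27 (11.1%, against 8.86%). The direct repeat bound by PPAR with RXR, 2 copies of AGGTCA with 1 base of any kind between them, and TCAAGGTCA, bound by oestrogen-related receptors, matched 0 of 27 windows, against 0.0396% and 0.423% of all windows. AGGTCA alone, which also lies within those 2 motifs, matched 4 of 27 (14.8%, against 16.3%). A match is a run of letters, not a measured binding site. The windows of Hadha and Hadhb cover the same 228 bases on opposite strands (chr5:30155003-30155230), so the strand printed for Hadhb also holds most of the Hadha window. Both windows carried the GC box and were counted separately.

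As a group the 31 genes differed little between the libraries beside the cell type markers. By the 2-fold rule (a log2 ratio of scaled CPM of at least 1 in size with an interval that excludes 0), 2 of 31 were lower in the CD36_KO library, Cpt2 and Etfb. This was 6.45% of the genes, where 10.8% of all 12177 measured genes were lower by the same rule. At the other end 0 of 31 were higher, where 6.5% of all measured genes were. The median log2 ratio of the 31 genes was -0.24 (range -1.07 to 0.32), against -0.13 over all measured genes. It was -0.048 with library totals alone and 0.19 on the log2(TPM + 1) scale, where the median of all measured genes was 0.07 and 0.37. Set against that all-gene median it was thus -0.11, -0.11 and -0.17 on these 3 scales. The direction of the whole group depended on the scale. Its place a little below the typical gene also held on the TPM scale. Library totals move every gene alike, so beyond the filter they could not change that place.

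The counting intervals lay below 0 for 16 genes (51.6%) and above 0 for 1 gene (3.23%), against 40.7% and 24.9% of all measured genes. The scaled CPM of the 4 CD36_KO lanes all lay below the 4 WT lanes for 13 genes (41.9%), against 33.3% of all measured genes, and all above for 0 genes, against 19.6%. The 31 genes took 0.104% of all counts in the CD36_KO library and 0.111% in the WT library. Their summed level was 378 to 405 TPM in CD36_KO lanes and 320 to 344 TPM in WT lanes. Mean TPM was higher in CD36_KO for 23 genes and lower for 8, where the median log2(TPM + 1) ratio of all measured genes was itself 0.37. Of the 31 genes, 22 lay below the all-gene median on either scale.

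**Figure D1:**
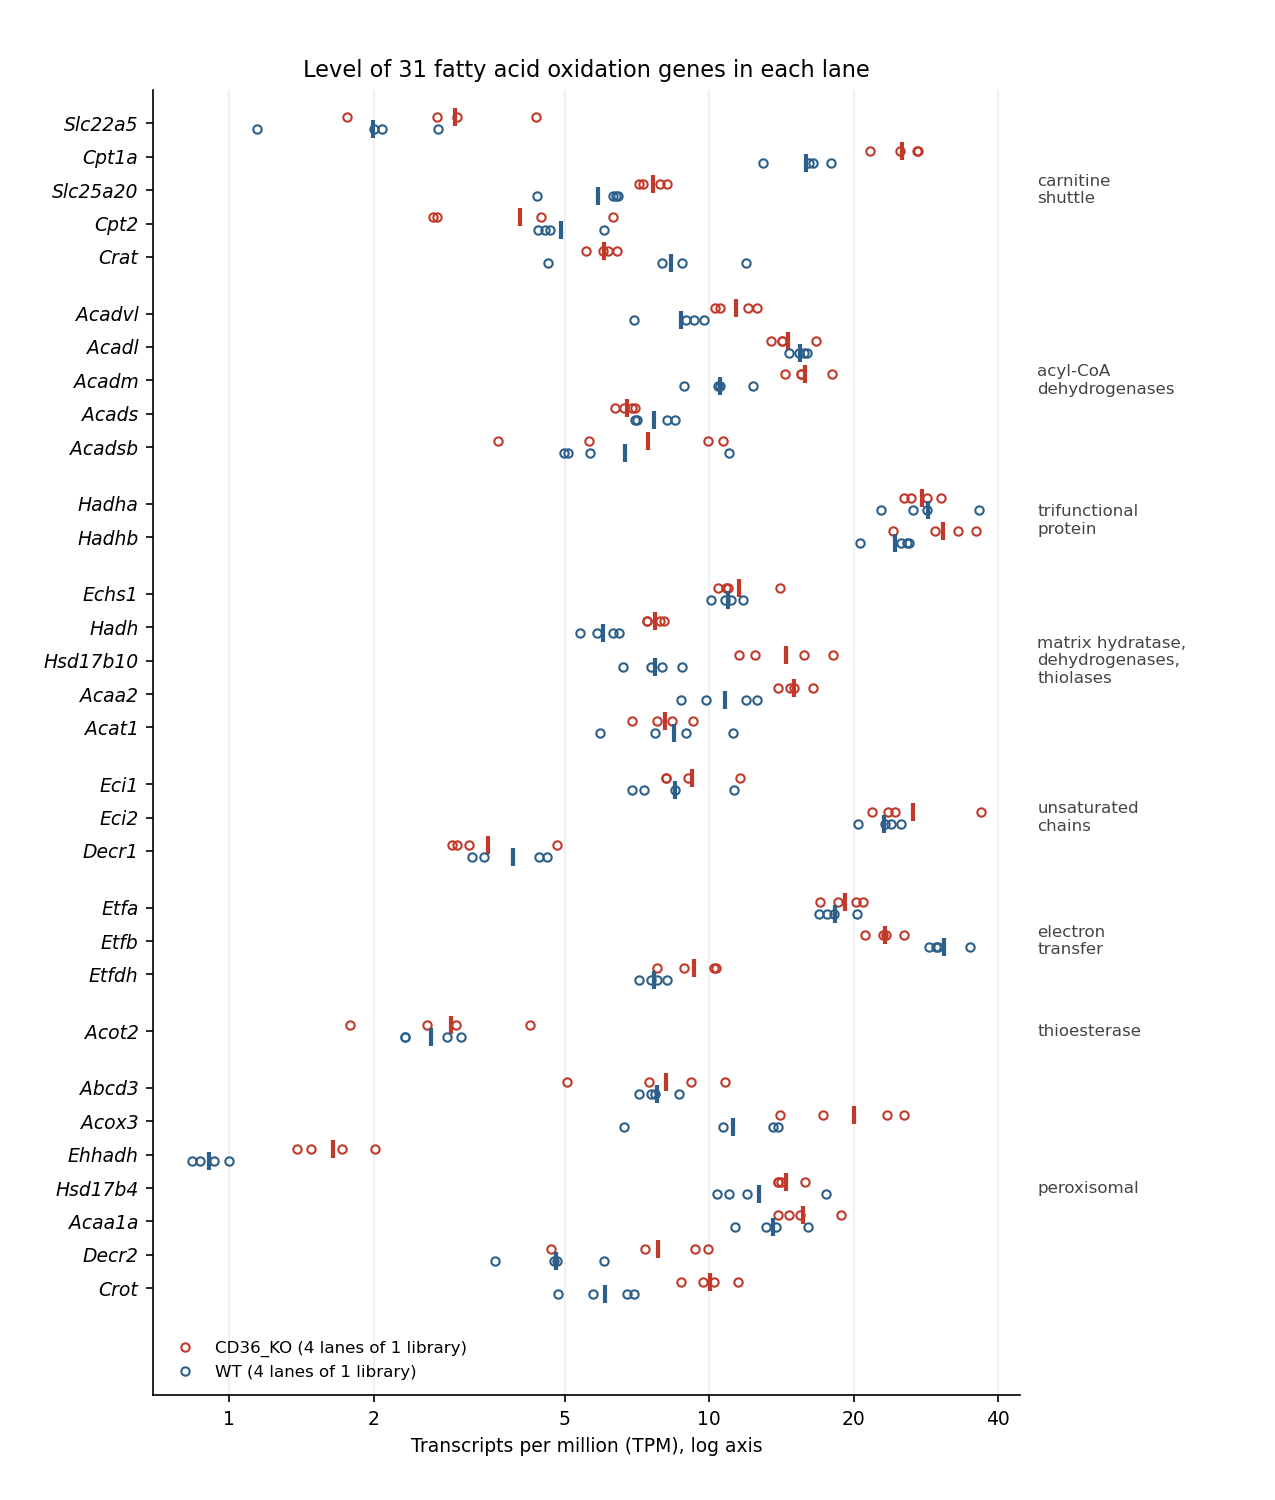
Level of each of the 31 genes in TPM (log axis), grouped by role, with the 4 CD36_KO lanes drawn above the 4 WT lanes as circles and the mean of the lanes as a bar. Lane means run from 1.65 TPM (Ehhadh) to 30.7 TPM (Hadhb) in the CD36_KO library and from 0.908 TPM (Ehhadh) to 30.9 TPM (Etfb) in the WT library.

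The carnitine shuttle opened the pathway with unequal values. Cpt1a, the carnitine palmitoyltransferase of the outer mitochondrial membrane that controls entry, had scaled levels of 118.1, 109.4, 112.7 and 113.9 CPM in the CD36_KO lanes, against 120.9, 111.0, 117.2 and 103.6 CPM in the WT lanes. These lanes overlapped fully, and the log2 ratio was 0.00 (interval -0.11 to 0.12). Per transcript length Cpt1a stood at 25.3 ± 2.61 TPM in CD36_KO and 15.9 ± 2.11 TPM in WT (SD over 4 lanes), a log2(TPM + 1) ratio of 0.64, or 0.27 above the all-gene median on that scale. It was the most abundant gene of the shuttle in both libraries.

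Cpt2, the matching transferase of the inner membrane (ENSMUSG00000028607.16; GRCm38 chromosome 4, 107903981 to 107923610), had 8.94, 6.90, 8.58 and 8.72 CPM in the CD36_KO lanes, against 17.3, 19.7, 18.6 and 12.8 CPM in the WT lanes. Every CD36_KO lane lay below every WT lane. From 92 counts in the CD36_KO library and 161 in the WT library the log2 ratio was -1.05 (interval -1.43 to -0.67), so Cpt2 was lower by the 2-fold rule. That call stood close to its threshold: without CD36_KO lane 2 the ratio was -0.96, and without WT lanes 1, 2 or 3 it was -0.98, -0.91 or -0.94, all short of 2-fold. With library totals alone it was -0.85, and on the log2(TPM + 1) scale -0.23, or -0.60 against the all-gene median. In TPM the Cpt2 lanes overlapped, at 6.29, 2.71, 2.66 and 4.45 in CD36_KO, against 4.40, 6.04, 4.56 and 4.66 in WT.

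The shuttle's other members fell short of 2-fold. Slc22a5, the carnitine importer of the plasma membrane, had 109 counts in CD36_KO and 103 in WT (log2 ratio -0.16, -0.56 to 0.25). Slc25a20, which exchanges acylcarnitine for carnitine across the inner membrane, had 218 counts in CD36_KO and 210 in WT (-0.18, -0.46 to 0.10). Crat, which moves acetyl groups between carnitine and CoA, had 19.7, 17.4, 29.7 and 18.5 CPM in the CD36_KO lanes, against 34.2, 32.2, 38.0 and 31.7 CPM in the WT lanes. Its lanes did not overlap, and its log2 ratio was -0.67 (-0.92 to -0.42).

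**Figure D2:**
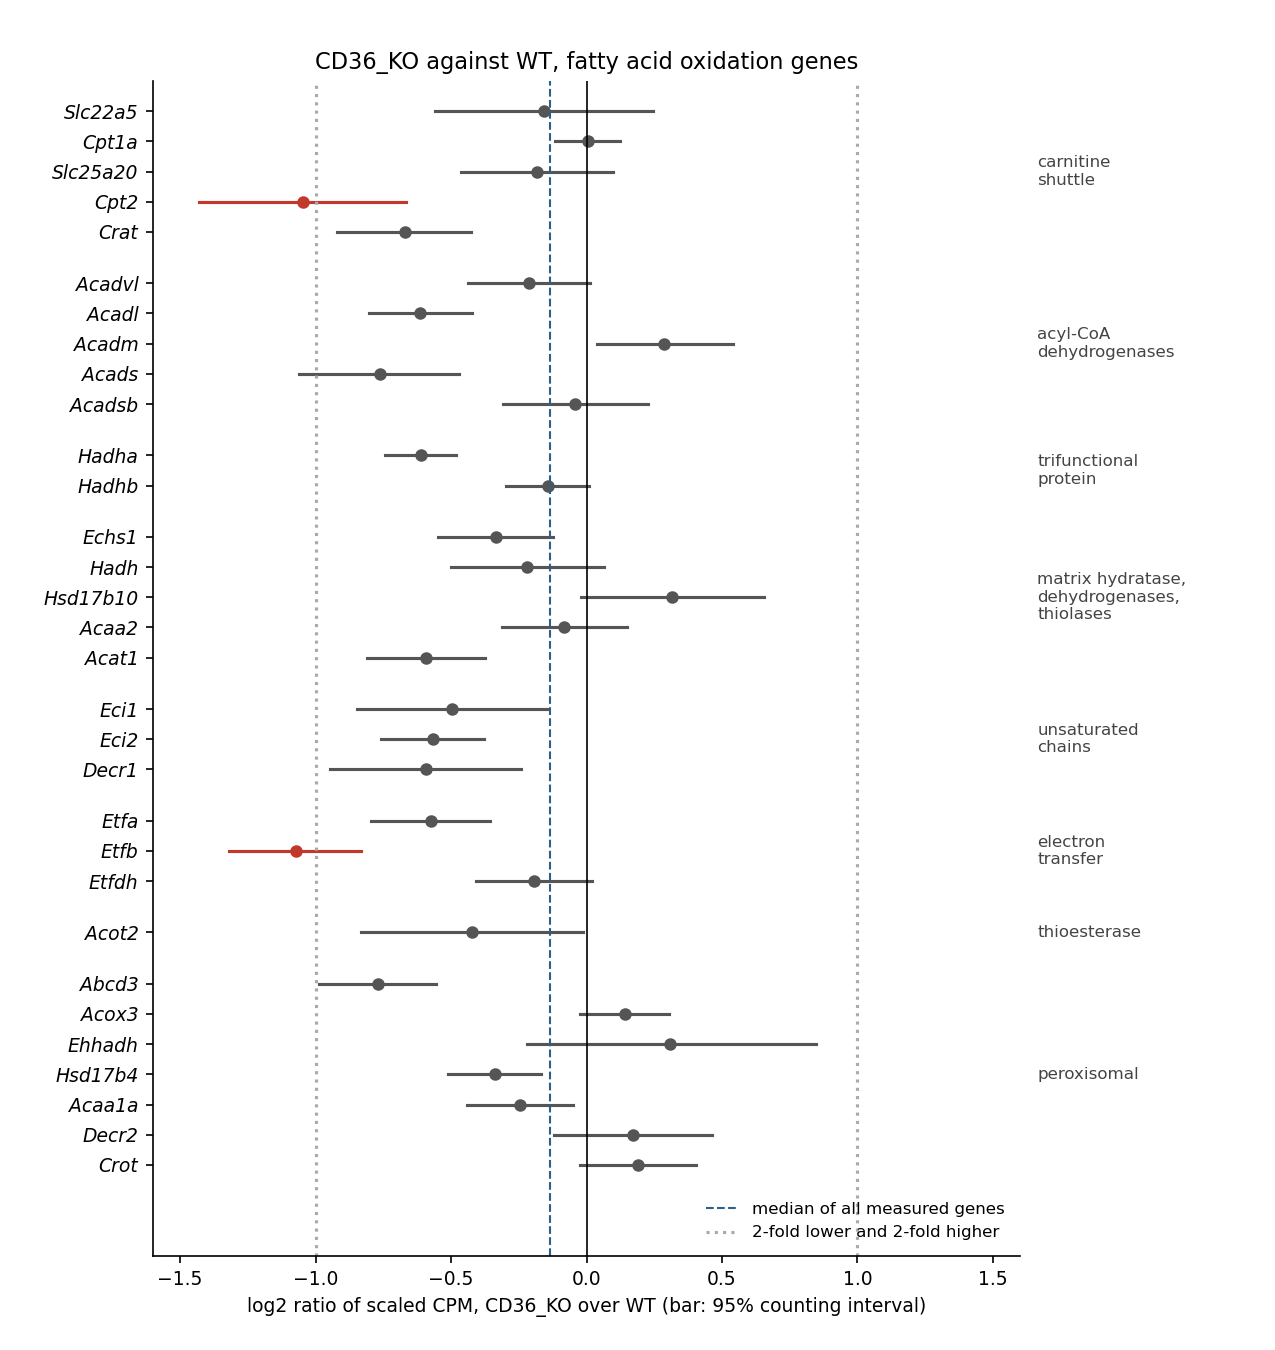
Log2 ratio of scaled CPM, CD36_KO over WT, for each gene with its 95% counting interval; red marks the genes lower by the 2-fold rule, the dashed line the median of all measured genes, and the dotted lines 2-fold. Cpt2 (-1.05) and Etfb (-1.07) are the lowest, and Hsd17b10 (0.32), Ehhadh (0.31) and Acadm (0.29) the highest.

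The acyl-CoA dehydrogenases, which carry out the first step for different chain lengths, did not share 1 direction. Acadm, the medium-chain enzyme, had 30.04, 32.3, 29.0 and 25.4 CPM in the CD36_KO lanes, against 21.5, 29.2, 20.3 and 24.8 CPM in the WT lanes. CD36_KO lanes tended to be higher but overlapped with WT lane 2, and the log2 ratio of 0.29 (0.04 to 0.54) was the only interval of the 31 genes above 0. With TPM it was 0.55, or 0.18 above the all-gene median.

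Acads, the short-chain enzyme, had 12.9, 14.5, 15.02 and 16.7 CPM in the CD36_KO lanes, against 26.6, 21.9, 25.8 and 26.1 CPM in the WT lanes (log2 ratio -0.76, -1.06 to -0.47). Acadl, the long-chain enzyme, had 38.3, 36.3, 34.3 and 36.7 CPM in the CD36_KO lanes, against 57.8, 57.5, 54.1 and 53.5 CPM in the WT lanes (-0.61, -0.80 to -0.42). For both genes the groups of lanes did not overlap, though neither reached 2-fold. Acadvl, the very-long-chain enzyme of the inner membrane, stood at -0.21 (-0.44 to 0.01), and Acadsb, which acts on short branched chains, at -0.04 (-0.31 to 0.23).

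The trifunctional protein carries out the later steps for long chains, with an alpha subunit from Hadha and a beta subunit from Hadhb. Hadha (GRCm38 chromosome 5, 30118304 to 30155162) had 82.3, 74.9, 74.4 and 73.8 CPM in the CD36_KO lanes, against 112.9, 116.2, 116.6 and 120.7 CPM in the WT lanes. All CD36_KO lanes were lower, with a log2 ratio of -0.61 (-0.74 to -0.48). Hadhb, which starts 85 bases away on the other strand (30155248 to 30184593) in GENCODE M21, had 64.3, 71.6, 60.9 and 63.0 CPM in the CD36_KO lanes, against 71.2, 79.6, 70.5 and 65.2 CPM in the WT lanes. Its lanes overlapped, and its ratio was -0.14 (-0.30 to 0.01).

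A ratio between partners in the same library needs no scaling between libraries. Hadha counts were 1.18 times those of Hadhb in the CD36_KO library and 1.63 times in the WT library. By lane this ratio was 1.28, 1.05, 1.22 and 1.17 in CD36_KO, against 1.58, 1.46, 1.65 and 1.85 in WT, without overlap. The log2 of the ratio between libraries was -0.47 (exact conditional interval -0.67 to -0.27). These are ratios of counts. In TPM the lane means of Hadha and Hadhb were 27.7 and 30.7 in CD36_KO, against 28.6 and 24.4 in WT.

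**Figure D3:**
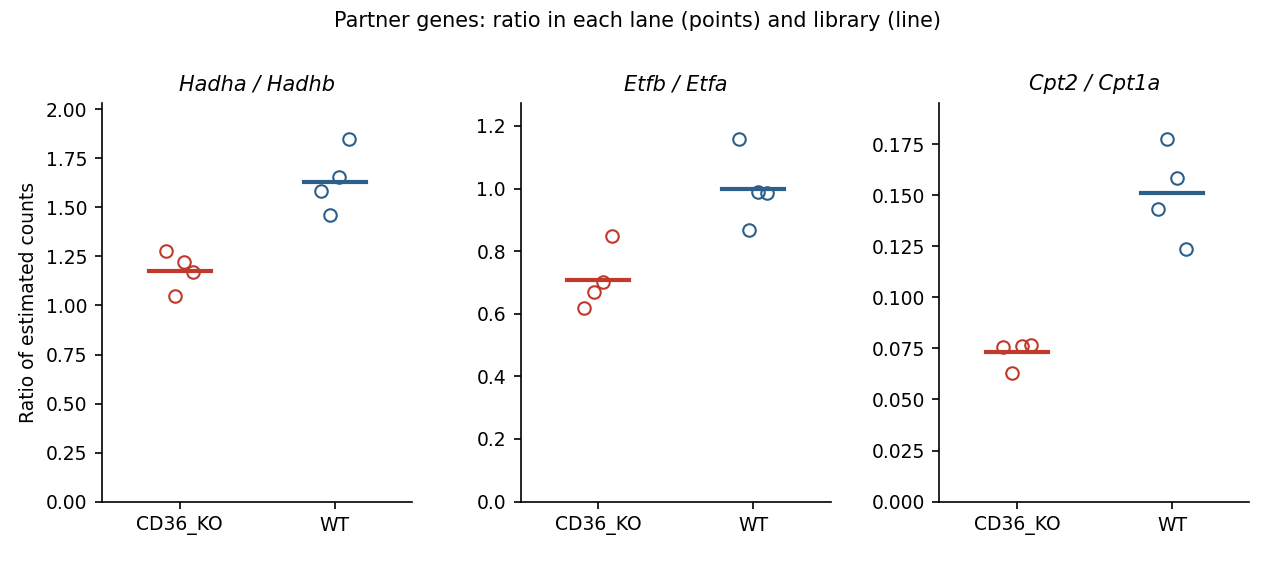
Ratio of estimated counts within 3 pairs of partner genes, with CD36_KO on the left and WT on the right of each panel; circles are lanes and lines the whole library. Hadha/Hadhb stands at 1.18 in CD36_KO and 1.63 in WT, Etfb/Etfa at 0.708 in CD36_KO and 1.00 in WT, and Cpt2/Cpt1a at 0.0730 in CD36_KO and 0.151 in WT.

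Electron transfer from the first step gave the lowest gene of the pathway. Etfb, the beta subunit of the electron transfer flavoprotein (ENSMUSG00000004610.4; GRCm38 chromosome 7, 43444083 to 43457800), had 16.8, 17.1, 21.6 and 23.3 CPM in the CD36_KO lanes, against 48.5, 35.3, 41.4 and 40.2 CPM in the WT lanes. The lanes stood well apart, and from 218 counts in CD36_KO and 389 in WT the log2 ratio was -1.07 (-1.32 to -0.83). Without WT lane 1 it was -0.93, short of 2-fold, as it was with library totals alone (-0.88). In TPM Etfb stood at 21.2, 23.05, 23.3 and 25.5 in the CD36_KO lanes, against 35.01, 29.7, 29.96 and 28.8 in the WT lanes, again without overlap. On that scale its log2 ratio was -0.39, or -0.76 against the all-gene median.

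Etfa, the alpha subunit, had 27.2, 25.5, 30.9 and 27.4 CPM in the CD36_KO lanes, against 41.9, 40.8, 41.8 and 40.8 CPM in the WT lanes (-0.58, -0.80 to -0.36). In TPM Etfa stood at 19.2 in CD36_KO and 18.3 in WT (lane means). Its log2(TPM + 1) ratio was 0.07, or -0.30 against the all-gene median. Etfb counts were 0.708 times those of Etfa in CD36_KO and 1.00 times in WT, a log2 difference of -0.50 (-0.83 to -0.17). The lane ratios did not overlap, at 0.618 to 0.849 in CD36_KO and 0.866 to 1.16 in WT. Etfdh, which passes the electrons on to ubiquinone, stood at -0.19 (-0.41 to 0.02). For Cpt2 over Cpt1a the same measure was -1.05 (-1.45 to -0.65).

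The other matrix steps ran from -0.59 to 0.32. Hsd17b10, a dehydrogenase that is also a subunit of the mitochondrial RNase P, had 13.2, 21.1, 14.3 and 18.2 CPM in the CD36_KO lanes, against 14.3, 12.9, 11.4 and 14.97 CPM in the WT lanes. The lanes overlapped, and the log2 ratio was 0.32 (-0.02 to 0.65), the highest of the 31. Acat1, the acetoacetyl-CoA thiolase, had 28.3, 30.2, 22.2 and 32.3 CPM in CD36_KO lanes, against 41.3, 40.7, 40.6 and 47.5 CPM in WT lanes (-0.59, -0.81 to -0.38).

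Echs1, the short-chain enoyl-CoA hydratase, had a log2 ratio of -0.34 (-0.55 to -0.12). Hadh, the hydroxyacyl-CoA dehydrogenase of shorter chains, stood at -0.22 (-0.50 to 0.06) and the thiolase Acaa2 at -0.08 (-0.31 to 0.15). Acot2, a thioesterase that frees fatty acids from CoA in the matrix, stood at -0.42 (-0.83 to -0.01). Its near-identical neighbour Acot1 competes for reads, so its value depends on how they were divided.

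The 3 auxiliary enzymes for unsaturated chains had ratios of scaled CPM close to each other. Eci2, an enoyl-CoA isomerase found in mitochondria and peroxisomes, had 35.9, 35.9, 33.9 and 42.3 CPM in the CD36_KO lanes, against 49.1, 59.1, 55.1 and 55.6 CPM in the WT lanes (-0.57, -0.76 to -0.38). Eci1, the other isomerase, stood at -0.50 (-0.85 to -0.15), and Decr1, the mitochondrial dienoyl-CoA reductase, at -0.59 (-0.95 to -0.24). Lanes of CD36_KO and WT overlapped for Eci1 and not for Eci2 or Decr1. On the log2(TPM + 1) scale Eci2 stood at 0.19, Eci1 at 0.11 and Decr1 at -0.13, which is -0.17, -0.26 and -0.50 against the all-gene median.

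Peroxisomal genes included both positive and negative ratios. Each gene was counted in 1 compartment only. Eci2 (-0.57), found in both, and Crat (-0.67) were counted as mitochondrial, and Slc22a5 as neither. With Eci2 added to the 7 peroxisomal genes, the middle of their ratios would fall between Acaa1a (-0.24) and Acox3 (0.14). The contrast between the compartments thus depends on this placement. Of all 12177 measured genes 4999 had a positive and 7178 a negative ratio. The median over the 7 peroxisomal genes was 0.14, with 4 positive and 3 negative, and that over the 23 mitochondrial genes -0.42, with 3 positive and 20 negative. Against the all-gene median these were 0.27 and -0.29, and 0.11 and -0.26 on the log2(TPM + 1) scale. Summed, the peroxisomal genes stood at 72.6 to 87.8 TPM in CD36_KO lanes against 50.3 to 61.0 TPM in WT lanes, and the mitochondrial ones at 301 to 315 TPM in CD36_KO lanes against 267 to 286 TPM in WT lanes. The sum of the peroxisomal genes in scaled CPM had a log2 ratio of -0.14 (-0.22 to -0.06), of the other sign than their median. That of the mitochondrial genes was -0.35 (-0.40 to -0.31), against their higher TPM sum. Hepatocyte markers, from a cell type rich in both pathways, had a median of 2.58 in scaled CPM, and their part in these values was not tested.

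Acox3, an oxidase of branched acyl-CoA, had 61.0, 67.1, 62.8 and 63.7 CPM in the CD36_KO lanes, against 52.9, 61.3, 60.8 and 55.8 CPM in the WT lanes (log2 ratio 0.14, -0.02 to 0.30). Crot, which makes carnitine esters of medium chains for export, had 38.0, 39.2, 41.0 and 34.7 CPM in the CD36_KO lanes, against 34.3, 28.7, 39.5 and 31.4 CPM in the WT lanes (0.19, -0.02 to 0.41). CD36_KO lanes were mostly higher for both genes, with overlap and intervals that reached 0. Ehhadh, the bifunctional enzyme strongly expressed in liver, was the least abundant gene, at 1.65 ± 0.28 TPM in CD36_KO and 0.908 ± 0.07 TPM in WT. From 76 counts in CD36_KO and 52 in WT its ratio was 0.31 (-0.22 to 0.85). Decr2, the peroxisomal dienoyl-CoA reductase, stood at 0.17 (-0.12 to 0.46).

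Abcd3, the transporter that carries acyl-CoA into peroxisomes, had 24.3, 30.6, 24.0 and 31.2 CPM in the CD36_KO lanes, against 46.4, 44.6, 46.1 and 50.5 CPM in the WT lanes. Its lanes were far apart, and its log2 ratio of -0.77 (-0.99 to -0.56) was the lowest of the peroxisomal group. On the log2(TPM + 1) scale it was 0.06, or -0.31 against the all-gene median. Hsd17b4, the second bifunctional enzyme, had a ratio of -0.34 (-0.51 to -0.17) and the thiolase Acaa1a one of -0.24 (-0.44 to -0.05). Acaa1a shares reads with the near-identical Acaa1b.

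Part of the counts of these genes was assigned to transcripts that are not typed as protein-coding. Retained-intron transcripts, as typed in the files, held 14.6% of the 31 genes' counts in the CD36_KO library (exact binomial interval 14.0 to 15.3) and 11.3% in the WT library (10.7 to 11.9). Over all measured protein-coding genes the shares were 9.0% in CD36_KO and 6.9% in WT, so the difference went the same way there. Protein-coding transcripts held 76.4% of the 31 genes' counts in CD36_KO and 78.9% in WT. Of 22 genes with any such counts, 16 (72.7%) had a higher retained-intron share in CD36_KO and 6 (27.3%) a lower one. Of 6796 measured protein-coding genes with such counts, 67.8% had a higher share and 32.1% a lower one, so the oxidation genes stood near the background.

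The intervals of the shares lay apart in 4 of the 22 genes. In 3 (13.6%) the CD36_KO share was higher, against 17.9% of the 6796 genes, and in 1 (4.55%) it was lower, against 3.44%, so these 4 are described without being particular to the pathway. Echs1 had 50.7% of its counts in retained-intron transcripts in CD36_KO (45.4 to 56.0) and 35.9% in WT (31.1 to 41.0). By lane this was 53.1, 44.6, 50.4 and 53.2% in CD36_KO, against 38.1, 28.7, 32.7 and 43.6% in WT, without overlap. Acaa1a had 42.1% in CD36_KO (37.4 to 46.9) and 27.6% in WT (23.4 to 31.998), and its lanes did not overlap either. Etfdh had 48.4% in CD36_KO (43.1 to 53.6) and 29.0% in WT (24.3 to 34.0), with overlapping lanes at 36.2 to 57.9% in CD36_KO and 12.7 to 38.7% in WT. Decr2 went the other way, with 26.4% in CD36_KO (20.8 to 32.6) and 50% in WT (42.3 to 57.7). Its lanes overlapped, at 19.5 to 36.2% in CD36_KO and 25.9 to 75.8% in WT. The intervals of these shares do not cover the division of reads among transcripts, which is itself an estimate.

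**Figure D4:**
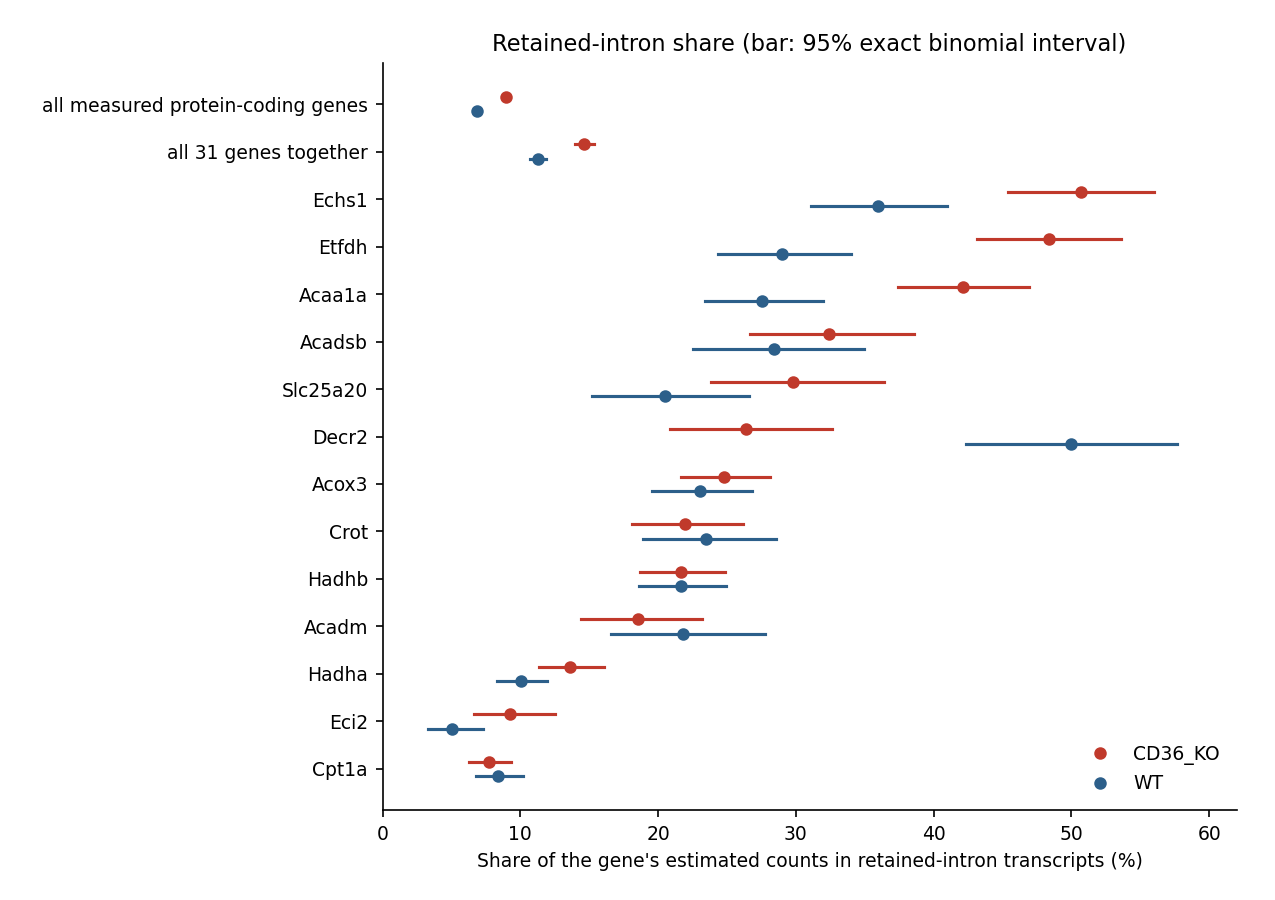
Share of each gene's estimated counts in retained-intron transcripts, in percent, with exact binomial 95% intervals, for genes with at least 40 such counts; CD36_KO is drawn above WT. Echs1, Etfdh and Acaa1a lie higher in CD36_KO and Decr2 lower, and the top rows give all measured protein-coding genes (9.0% in CD36_KO, 6.9% in WT) and the 31 genes together (14.6% in CD36_KO, 11.3% in WT).

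Where the strand of reads was not used, reads of a gene and of its neighbour on the other strand cannot be told apart, and the labels do not say whether it was. In GENCODE M21, 7 of the 31 genes overlap a protein-coding gene on the other strand. Acadvl shares the most, 1151 exonic bases with Dvl2, which had 131 counts in CD36_KO and 142 in WT. Hadha shares 75 exonic bases with Garem2, Crat 59 with Dolpp1, and Acadsb 0 with Fgfr2. Echs1 shares 142 exonic bases with Paox, all inside its main retained-intron transcript, and Paox itself had 80 counts in CD36_KO and 79 in WT. Acaa1a shares 290 exonic bases with Myd88, which had 410 counts in CD36_KO and 329 in WT, but its main retained-intron transcript shares 0. The same holds for Etfdh, with 278 bases shared with 4930579G24Rik and 0 in that transcript.

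Neighbouring pathways gave a frame for these values, beside 6.5% of all measured genes higher and 10.8% lower by the 2-fold rule. Tricarboxylic acid cycle enzymes, which burn the acetyl-CoA made by oxidation, had 0 of 17 genes higher, 0 lower and 17 between. Of all 12177 measured genes 7178 had a negative ratio, and of these enzymes 17 of 17 did, with a median log2 ratio of -0.59. Among them were Mdh2 (-0.94), Sdhc (-0.94) and citrate synthase Cs (-0.86). On the log2(TPM + 1) scale the list's median was 0.08, or -0.29 against the all-gene median. Peroxisome biogenesis genes had 1 of 15 measured genes higher, Pex11g (1.51, 0.99 to 2.05), and 0 lower; the 14 others were between, and the list's median was -0.35. Pex5, the import receptor for peroxisomal enzymes, stood at -0.55.

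Other acyl-CoA oxidation genes had 26 of 35 measured, of which 1 was higher and 0 lower; the 25 others were between, and the list's median was -0.17. The higher gene was Acaa1b, a peroxisomal thiolase abundant in liver, with 147 counts in CD36_KO and 61 in WT (1.03, 0.59 to 1.49). Scp2, which encodes a sterol carrier and a peroxisomal thiolase, had 1117 counts in CD36_KO and 548 in WT (0.79, 0.64 to 0.94), and Nudt19 and Acacb both stood at -0.93. Ketone body enzymes had 1 of 5 genes higher, 0 lower and 4 between, with -0.49 as the list's median. Oxct1, which ketone-using tissues need, stood at -0.99, Acat2 at -0.94 and Bdh1 at -0.49. Alb, the serum albumin gene of hepatocytes, stood at 147 ± 3.66 TPM in CD36_KO and 15.2 ± 0.84 TPM in WT (SD over 4 lanes). Whether hepatocyte RNA contributed to these genes was not tested.

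**Figure D5:**
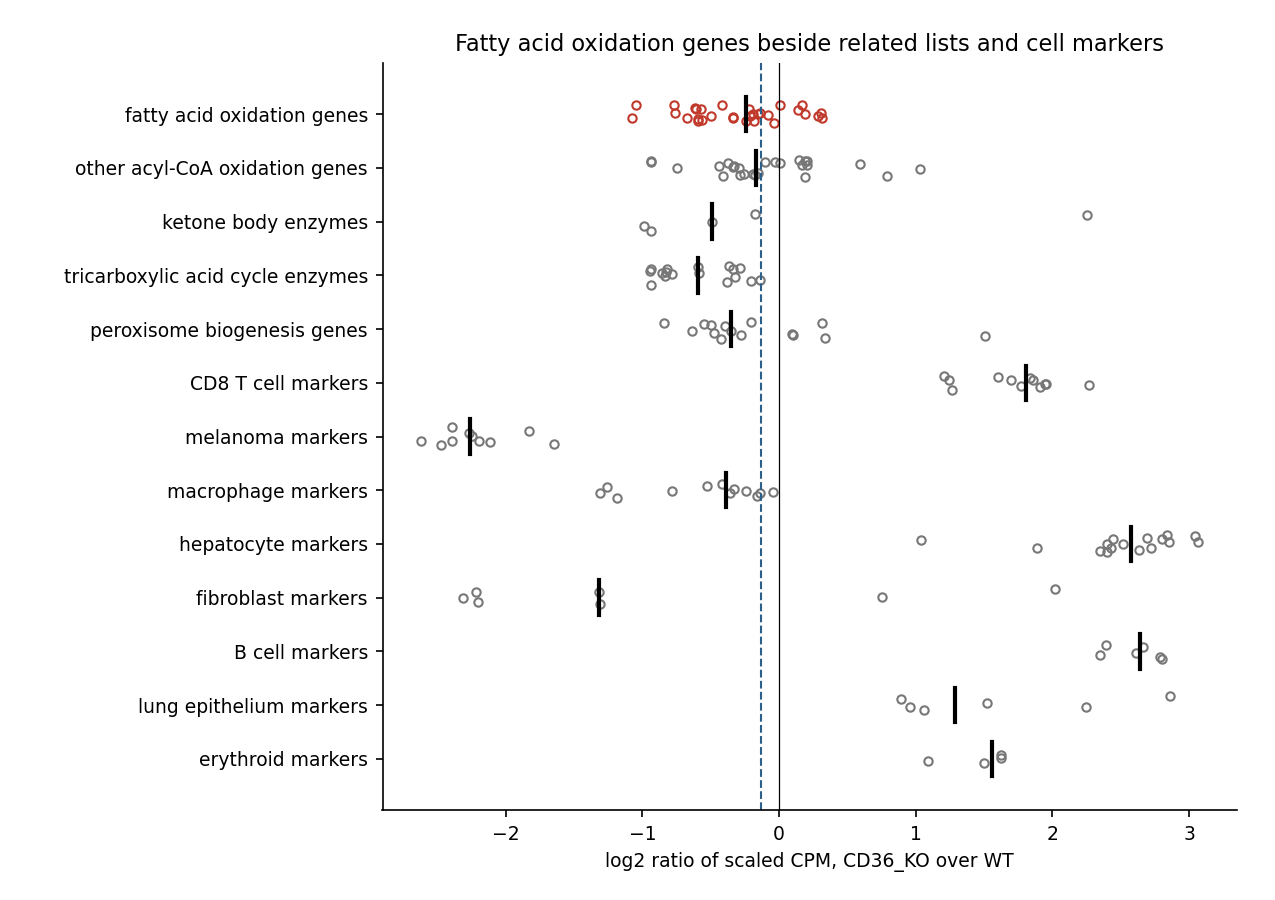
Log2 ratio of scaled CPM, CD36_KO over WT, for each measured gene (circles) of the fatty acid oxidation genes (red), related pathways and cell type markers, with list medians as black bars and the median of all measured genes dashed. The 31 genes lie between -1.07 and 0.32, while melanoma markers have a median of -2.26 and CD8 T cell, hepatocyte and B cell markers medians of 1.80, 2.58 and 2.64.

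The remaining marker lists complete that frame. Fibroblast markers had 5 of 7 measured genes lower, 1 higher and 1 between (median -1.32), with Col1a1 at -2.32 and Col1a2 at -2.21. B cell markers were higher in 6 of 6 cases, with Cd79a at 2.61 and Cd79b at 2.35. Lung epithelium markers were higher in 4 of 6 measured cases, with 0 lower (median 1.29), among them Scgb1a1 (2.24) and Sftpc (1.06). Erythroid markers were higher in 4 of 4 measured cases, with Hbb-bs at 1.62 and Hba-a1 at 1.63. Cd8a (1.91) and Cd8b1 (1.95), Dct (-2.25) and Pmel (-2.12), Alb (2.72) and Apoa1 (2.43) were the first-listed genes of the CD8 T cell, melanoma and hepatocyte lists, and Lyz2 (-0.36) and Csf1r (-0.04) those of the macrophage list. Which cells the oxidation transcripts came from was not separated.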

How the data were processed

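RNA of cells labelled as sorted CD8 T cells was analysed as 4 lanes of 1 library per genotype, by the sample titles. Per the submitters' processing notes, kallisto and genome build GRCm38.p6 were used. The notes also name DESeq2 without versions. The authors' estimated counts per transcript were deposited without normalisation, while their deposited TPM values are scaled for effective length and lane total. Estimated counts of 142351 transcripts were summed over genes and lanes, and rounded to whole numbers. The totals were 10363391 for CD36_KO and 10071960 for WT. TMM factors (edgeR 4.0.16, R 4.3.3) were 1.07 and 0.934. Each gene's value was the log2 of CD36_KO over WT in TMM-scaled CPM, with a 95% interval by the exact Clopper-Pearson method from the split of its counts (scipy 1.17.1). Genes averaging 5 CPM or more were kept. Ratios of partner genes carry exact conditional intervals, and gene coordinates come from GENCODE M21. A replicated test could not be run on 1 library per genotype. Calls were tested on simulated data. Estimates that pseudoalignment divides among similar transcripts need not be whole, and in 22 of the 31 genes at least 1 lane value was more than 0.01 from a whole number. The members and gene lists were chosen with earlier results of these data known. Named genes were all 31 members, up to 4 genes with the largest absolute log2 ratio per related list, the first 2 of each marker list, and Cd36. Acot1 and the opposite-strand genes Paox, Myd88, 4930579G24Rik, Dvl2, Garem2, Dolpp1 and Fgfr2 were added after values were seen. Some genes that this rule names in the related lists are not reported here.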

Additional observations from a re-analysis of the deposited data

Results flagged for a closer look

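A single lane stood apart from the 3 others of its library in 5 of 62 sets of 4 lanes, where chance gives about 1 in 20. Acadvl had 27.7 CPM in CD36_KO lane 2, against 30.94 to 30.995 in the other CD36_KO lanes. Hadha had 82.3 CPM in CD36_KO lane 1, against 73.8 to 74.9. Hsd17b4 had 52.7 CPM in CD36_KO lane 2, against 47.6 to 47.9. Acads had 21.9 CPM in WT lane 2, against 25.8 to 26.6 in the other WT lanes. Acat1 had 47.5 CPM in WT lane 4, against 40.6 to 41.3.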

How the results depend on the processing

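No paired analysis was possible because each genotype had 1 library, and lane numbers do not pair replicates of a test. The number of genes lower by the 2-fold rule, 2, was 0 with library totals alone, with protein-coding transcripts only, and on the log2(TPM + 1) and log2(TPM + 0.1) scales, and 1 with a minimum of 20 CPM, where 22 of the 31 genes were left. With a 1.5-fold threshold 9 genes were lower (29.0%, against 23.2% of all measured genes). RLE size factors and no filter gave 2. Leaving out 1 lane gave 0 to 2. The number higher was 0 under each of these settings. The median of -0.24 was -0.048 with library totals alone, 0.19 with log2(TPM + 1), 0.20 with log2(TPM + 0.1), and -0.30 to -0.17 without 1 lane. The shift with library totals alone is that of leaving out the TMM factors (1.07 for CD36_KO and 0.934 for WT), which move each gene alike. The cause of the other shifts was not tested. On the log2(TPM + 1) scale the median of all measured genes also moved, from -0.13 to 0.37, and 29 of the 31 genes kept their side of it. Of 456 recomputed log2 ratios of single genes, 385 stayed inside the counting interval of the main value and 71 did not. A change of filter leaves a gene's ratio as it was, and leaving out a lane reuses most counts. For these settings a place inside the interval was therefore fixed or nearly so, and 0 fell outside without a lane. The 2 TPM scales, with 31 genes on each, gave 57 of the 71 outside, so most ratios on those scales left the interval. Depth limits the low genes most: Ehhadh, at 76 and 52 counts in CD36_KO and WT, had an interval of -0.22 to 0.85.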

Other observations

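In Hadhb and Etfdh, chosen after their values were seen, the division of counts among coding transcripts varied widely between lanes of the same library. Transcript Hadhb-203 had estimated counts of 0, 18.9, 41.9 and 0 in the CD36_KO lanes, against 36.6, 89.7, 0 and 94.8 in the WT lanes, while its close relative Hadhb-201 had 139.7, 125.4, 92.5 and 129.7 in the CD36_KO lanes, against 89.4, 63.0, 105.1 and 1.5 in the WT lanes. Transcript Etfdh-201 had 31.3, 23.5, 0.864 and 0.0011 in the CD36_KO lanes, against 88.3, 58.3, 5.01 and 0.0025 in the WT lanes. Most Hadha counts, 63.4% in CD36_KO and 60.3% in WT, were assigned to Hadha-201, which the files type as lncRNA, so the share of Hadha in protein-coding transcripts was 21.3% in CD36_KO and 27.5% in WT.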
